A study of Mus musculus with 10 samples.

Results

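The earliest IL-3/retinoic acid response of EML-C1 cells was taken from 2 arrays of the 10 in the series. The first held Sca1-high cells after 3 days in IL-3 (10 ng/ml) with ATRA, the all-trans form of retinoic acid (10 µM), and the second held untreated cells at day 0. EML-C1 comes from mouse bone marrow progenitors and gives rise to red cell and myeloid lineages in culture, and the line was kept in Iscove's medium with horse serum and BHK/MKL conditioned medium. The labels name the treated arm GM-CSF/IL-3, but by their protocol GM-CSF (10 ng/ml) was added only after day 3, so these cells had not met it. The other conditions were the Sca1-low fraction of the same treatment at day 3, the same arm at day 6 with GM-CSF, the same 3 populations given 10 ng/ml EPO, and 3 given both sets of factors, called combined here. The comparison asks which genes had moved after IL-3 and retinoic acid, before GM-CSF. Each condition had 1 array, so every difference below is a size with no replicate check and no test. Per the labels' protocol RNA came from sorted subpopulations, but no Sca1 fraction is named for untreated cells, so treatment, 3 days of culture and the sort cannot be told apart.

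IL-3 and GM-CSF act through receptors that share a beta chain and activate JAK2 and STAT5, which induces Pim kinases and the feedback inhibitors Cish and Socs. Retinoic acid binds nuclear RAR and RXR receptors, induces enzymes that clear it, and promotes granulocyte maturation. During that maturation the C/EBP factors, with Gfi1, govern the change from azurophil (primary) granule genes, made early, to secondary granule, S100 and secreted genes, made later.

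A level is the log2 of a probe's processed intensity minus that of the array's 75th percentile, and levels are compared only for the same probe between arrays. The 75th percentiles were 623 intensity units for IL-3/retinoic acid Sca1-high cells and 736 for untreated cells, and 57.2% and 51.9% of spots were well above background. The faintest such spots had levels of -5.19 and -4.73. Repeat spots of a probe had a median SD of 0.09 on the treated array and 0.04 on the untreated array. The 2 arrays were hybridised on different slides, so slide and condition cannot be told apart in their difference. The EPO Sca1-high array lay on the same slide as IL-3/retinoic acid Sca1-high cells and is given beside the main genes; its quality report reads ExtractionEvaluate, and those of the compared pair ExtractionInRange. In 1 corner of the arrays, the 168 spots in rows 1 to 12 and columns 1 to 15, the median level on the IL-3/retinoic acid Sca1-high array was -4.93, against -4.10 elsewhere on it. On the untreated array it was -2.55 in that corner, against -4.32 elsewhere, so the untreated array was bright there. Ly6a, which encodes Sca1, had a level of 2.64 in IL-3/retinoic acid Sca1-high cells, 3.02 in untreated cells and -3.43 in the Sca1-low fraction of the same culture. The Sca1-high label thus held against the Sca1-low fraction, and Ly6a was not called against untreated cells.

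A gene was called when it differed at least 2-fold and was well above background on its brighter array. Of 20508 genes with values, 14042 were above background on either array and 12545 on both. IL-3/retinoic acid Sca1-high cells had 1592 genes called higher (11.3% of the 14042) and 998 called lower (7.11%), together 18.4%. At least 4-fold apart were 723 higher and 304 lower genes, and at least 16-fold apart 201 higher and 52 lower genes. The median difference of all 14042 genes was 0.03. Counts of called members in the lists below are to be read beside these shares, 11.3% higher and 7.11% lower. Of the genes called higher, 741 were not above background in untreated cells, and of those called lower 254 were not above background in the treated cells. For such genes the fold is a bound against the faintest spot above background, or the gene's own signal where that is higher, and is written "at least"; the bound was under 2-fold for 385 higher and 59 lower genes. Among genes above background on both arrays 851 were called higher (6.78%) and 744 lower (5.93%). The split depends on the scaling. It was 1335 higher and 1361 lower with arrays scaled to their medians, and 1057 higher and 2518 lower with arrays scaled to 7 spike-in probes, whose levels were 0.33 to 0.55 higher on the treated array. With slide as a term in an additive model of all 10 arrays, which leaves 2 residual degrees of freedom, 4295 genes were higher and 3604 lower. That model turned the sign of 84 of 157 called genes under the naming rule (72 called higher, 12 called lower), Stfa1, S100a9, Gfi1 and Ncf1 among them, and gave a median of -7.81 for the late neutrophil list described next, -0.52 for C/EBP genes, -1.31 for chemokines and -1.39 for chemokine receptors. Near the threshold, Ssc4d (1.00) and Ehf (1.00) were just inside the higher calls and Wars (0.999) and Helb (0.998) just outside; Pcyt1a and Olfr544 were just inside the lower calls and Inpp5f and Trnt1 (-0.999) just outside.

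**Figure D1:**
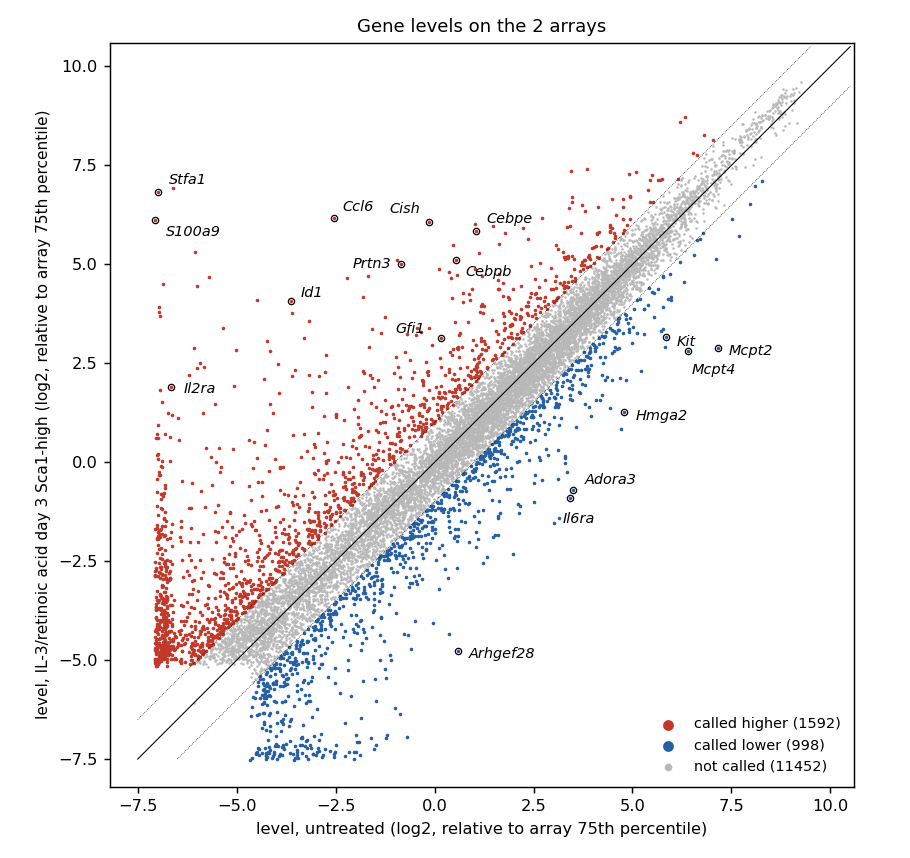
Level of each of 14042 genes in IL-3/retinoic acid day 3 Sca1-high cells (vertical axis) and in untreated cells (horizontal axis), both log2 relative to the array's 75th percentile, with 1 array each. Dotted lines mark 2-fold; the 1592 genes called higher (red) reach farther from the diagonal than the 998 called lower (blue), and Stfa1 and S100a9 lie at the background edge of the untreated array.

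The highest differences included genes of late neutrophil maturation: stefins, S100 alarmins and granule proteins. Stfa1, a stefin that inhibits cysteine proteases, had a level of 6.84 in IL-3/retinoic acid Sca1-high cells and -6.99, not above background, in untreated cells, so it was at least 3047-fold higher. Cstdc5, from the same gene cluster, was at least 3238-fold higher, Csta2 at least 684-fold, Stfa2l1 at least 344-fold and Stfa3 at least 278-fold. S100a9 and S100a8 together form calprotectin. S100a9 was at least 1860-fold higher (6.13 in treated cells, -7.06 and not above background in untreated cells) and S100a8 at least 401-fold (3.91 in treated cells, -6.95 and not above background in untreated cells). On the same slide, EPO Sca1-high cells had Stfa1 at -4.40, S100a9 at -4.52 and S100a8 at -6.78. The stefin probes target near-identical paralogues, so signal may be shared between them.

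The promoters of 3 of these genes are shown because a C/EBP-type string occurs in each. The sequences are RefSeq's for GRCm38.p6, from 250 bases before to 50 bases after the gene start, on the gene's strand, with matches to TTGCNNAA on either strand in capitals. The windows are chr16:36276898-36277197 (+) for Stfa1, chr16:36367521-36367820 (-) for Cstdc5 and chr3:90695672-90695971 (-) for S100a9.
Stfa1: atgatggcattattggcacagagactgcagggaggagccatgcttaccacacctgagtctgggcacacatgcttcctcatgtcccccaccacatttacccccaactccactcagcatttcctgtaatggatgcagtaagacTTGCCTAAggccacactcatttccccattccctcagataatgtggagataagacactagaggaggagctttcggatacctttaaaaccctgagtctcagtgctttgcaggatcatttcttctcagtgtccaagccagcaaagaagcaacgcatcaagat
Cstdc5: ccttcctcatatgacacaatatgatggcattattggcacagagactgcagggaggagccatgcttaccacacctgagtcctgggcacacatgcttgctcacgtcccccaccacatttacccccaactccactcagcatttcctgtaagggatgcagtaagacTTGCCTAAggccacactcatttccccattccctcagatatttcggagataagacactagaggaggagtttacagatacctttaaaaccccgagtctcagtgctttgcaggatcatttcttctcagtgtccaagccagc
S100a9: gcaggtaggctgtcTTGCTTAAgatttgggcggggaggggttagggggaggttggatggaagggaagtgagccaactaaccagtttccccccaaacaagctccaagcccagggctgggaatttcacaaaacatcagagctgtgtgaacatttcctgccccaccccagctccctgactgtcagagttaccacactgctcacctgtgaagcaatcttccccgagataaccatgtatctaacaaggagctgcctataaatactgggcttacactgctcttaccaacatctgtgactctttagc
Each window held 1 match, and the Stfa1 and Cstdc5 windows were identical at 269 of 279 aligned bases (96.4%). The same string occurred in 10.8% of all 32851 RefSeq promoters, in 15.2% of 1251 genes called higher with a promoter in the table, in 11.5% of 773 called lower and in 10.7% of 11259 measured genes. A match is a string of letters and not a measured binding site.

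Of 43 genes in the late neutrophil list, 40 were on the array and 35 were above background on either array; 25 of these were called higher and 2 lower. The median difference of the 35 was 3.78. Since many members passed only through the treated array, the 20 members above background on both arrays are given apart: 11 were called higher and 1 lower, with a median of 1.25. Among them Ltf (lactoferrin, a secondary granule protein) had a level of 2.28 in IL-3/retinoic acid Sca1-high cells and -2.77 in untreated cells, a 33.3-fold difference. Lcn2 (an iron-siderophore binder) had a log2 difference of 3.70, and Camp (cathelicidin) was 2.78-fold higher. Ngp was at least 4.28-fold higher and Mmp9, a gelatinase, at least 74.1-fold. Padi4, the enzyme that citrullinates histones in neutrophils, was 43.6-fold higher, with probes at 3.59 and 5.45. Clec4e (-1.84) and Cd177 (-2.21) were the members called lower. Csf3r, the G-CSF receptor, differed by -0.38 and was not called.

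Several of these genes stood higher still at day 6 with GM-CSF, where Stfa1 had a level of 8.67, S100a9 9.27, S100a8 9.06, Ltf 6.91, Ngp 6.16 and Camp 6.14. At day 3 in Sca1-high cells Camp (-2.40) and Ngp (-2.64) were thus far below their day 6 level, while Stfa1 was within 2 log2 units of it. Mmp9 had 1.48 at day 3 and 1.47 at day 6. The day 6 array lay on another slide and its label names no Sca1 fraction. Day, GM-CSF, slide and sort thus cannot be told apart between day 3 and day 6. In the Sca1-low cells of the day 3 culture Stfa1 had 0.83, S100a9 1.11 and S100a8 -1.42, and Mmp9 was not above background. In a bulk population, fewer cells of a type and less RNA per cell cannot be told apart. Of the neutrophil markers Ltf, Camp, Ngp, S100a8, S100a9 and Cxcr2, all 6 were called higher, and their summed linear level was 91.1 in IL-3/retinoic acid Sca1-high cells, 0.262 in untreated cells, 0.761 in EPO Sca1-high cells and 1419 at day 6 with GM-CSF. In IL-3/retinoic acid Sca1-high cells S100a9 made up most of that sum. Ly6g had no value on the array.

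**Figure D2:**
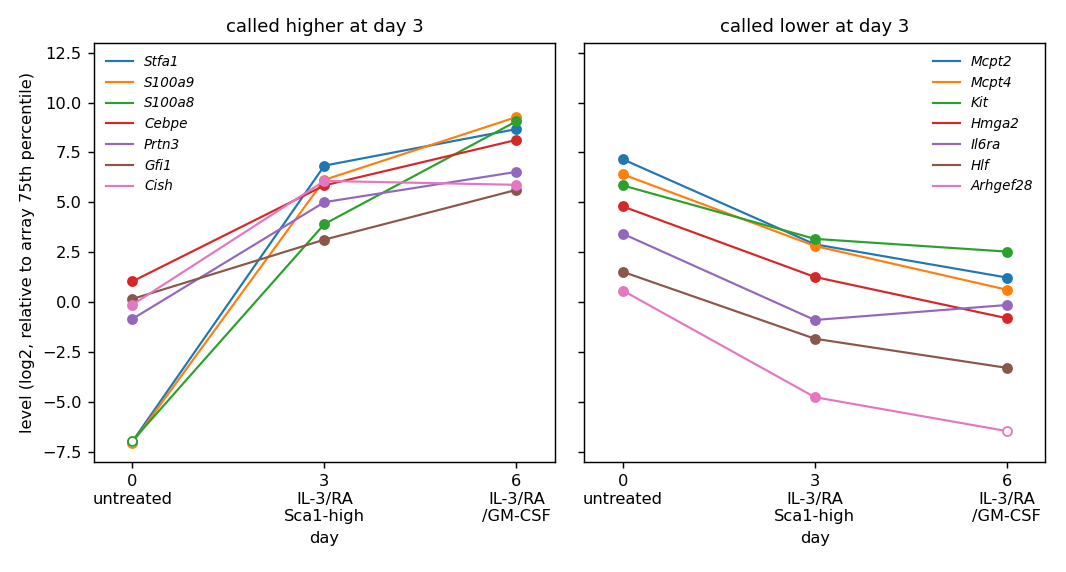
Levels (log2 relative to the array's 75th percentile) of 7 genes called higher (left) and 7 called lower (right) at day 3, in untreated cells at day 0, IL-3/retinoic acid Sca1-high cells at day 3 and IL-3/retinoic acid/GM-CSF cells at day 6; 1 array per day, open circles not well above background. S100a8 had 3.91 at day 3 and 9.06 at day 6, while Cish had 6.07 and 5.88. The arrays of the 3 days lay on different slides, and only the day 3 label names a Sca1 fraction.

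Azurophil granule genes, made at the promyelocyte stage, did not move as a block. Of 24 listed genes 23 were on the array and 21 above background on either array, with 8 called higher and 3 lower and a median of 0.32. Prtn3 (proteinase 3) had a level of 5.01 in IL-3/retinoic acid Sca1-high cells and -0.84 in untreated cells, 57.8-fold higher. Its chromosomal neighbour Elane (neutrophil elastase) had 1.43 in treated cells and 2.54 in untreated cells and was called lower (-1.11). Mpo (myeloperoxidase) had 7.72 in treated cells and 8.24 in untreated cells, and Ctsg (cathepsin G) 8.18 and 8.09; neither was called. Mpo and Ctsg were thus already bright in untreated cells and stayed within 1 log2 unit, whereas the Sca1-low fraction had 2.03 and 2.47. Ms4a3 (a membrane protein of granulocyte-monocyte progenitors) was 21.7-fold higher, Prss57 (a granule serine protease) 11.2-fold and the lysozyme genes Lyz1 and Lyz2 10.9-fold and 10.8-fold; these are close paralogues whose probes may share signal. Igsf6 was at least 63.1-fold higher.

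Of 13 genes for NADPH oxidase subunits and relatives, the enzyme that makes the respiratory burst, 12 were on the array and 11 above background. The cytosolic subunits Ncf1 (p47phox) and Ncf4 (p40phox) were 66.2-fold and 9.35-fold higher. Ncf1 had a level of 5.10 in IL-3/retinoic acid Sca1-high cells, -0.95 in untreated cells and -0.38 in EPO Sca1-high cells. Cybb, the membrane catalytic subunit, had -4.89 in treated cells and was not above background in untreated cells, so it was at least 1.11-fold higher; at day 6 it had -1.63. Nox4 was just inside the threshold (1.00). None was called lower.

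Transcription factors of granulocyte maturation were among the genes called higher. All 7 C/EBP family genes were above background on both arrays; 4 were called higher and none lower, with a median of 1.07. Cebpe, needed for secondary granules, had a level of 5.85 in IL-3/retinoic acid Sca1-high cells and 1.04 in untreated cells, 28.1-fold higher. Cebpb, linked to emergency granulopoiesis, had 5.12 in treated cells and 0.55 in untreated cells, 23.9-fold higher. Cebpa, which starts the granulocyte programme, was 3.90-fold higher and Cebpd 2.10-fold. In the Sca1-low fraction Cebpe had -0.44 and Cebpa was not above background. Cebpg (0.76), Cebpz (-0.11) and Ddit3 (-0.55) were not called.

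Of 47 other myeloid regulators, 41 were above background on both arrays, with 11 called higher and 6 lower and a median of -0.07. Id1, an inhibitor of basic helix-loop-helix factors, had a level of 4.08 in IL-3/retinoic acid Sca1-high cells and -3.62 in untreated cells, 207-fold higher; EPO Sca1-high cells had -1.38. Gfi1, a repressor needed for neutrophil formation, was 7.86-fold higher (3.13 in treated cells, 0.16 in untreated cells). Klf2 was 11.4-fold and Vdr, the vitamin D receptor, 11.4-fold higher. Spi1, which encodes PU.1, was 2.02-fold higher and Irf8, a monocyte and dendritic regulator, 5.64-fold. Runx1 (0.50) was not called, and Klf4 (-1.14), Bcl11a, Egr1, Klf5, Gfi1b and Nfe2l2 were called lower.

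**Figure D3:**
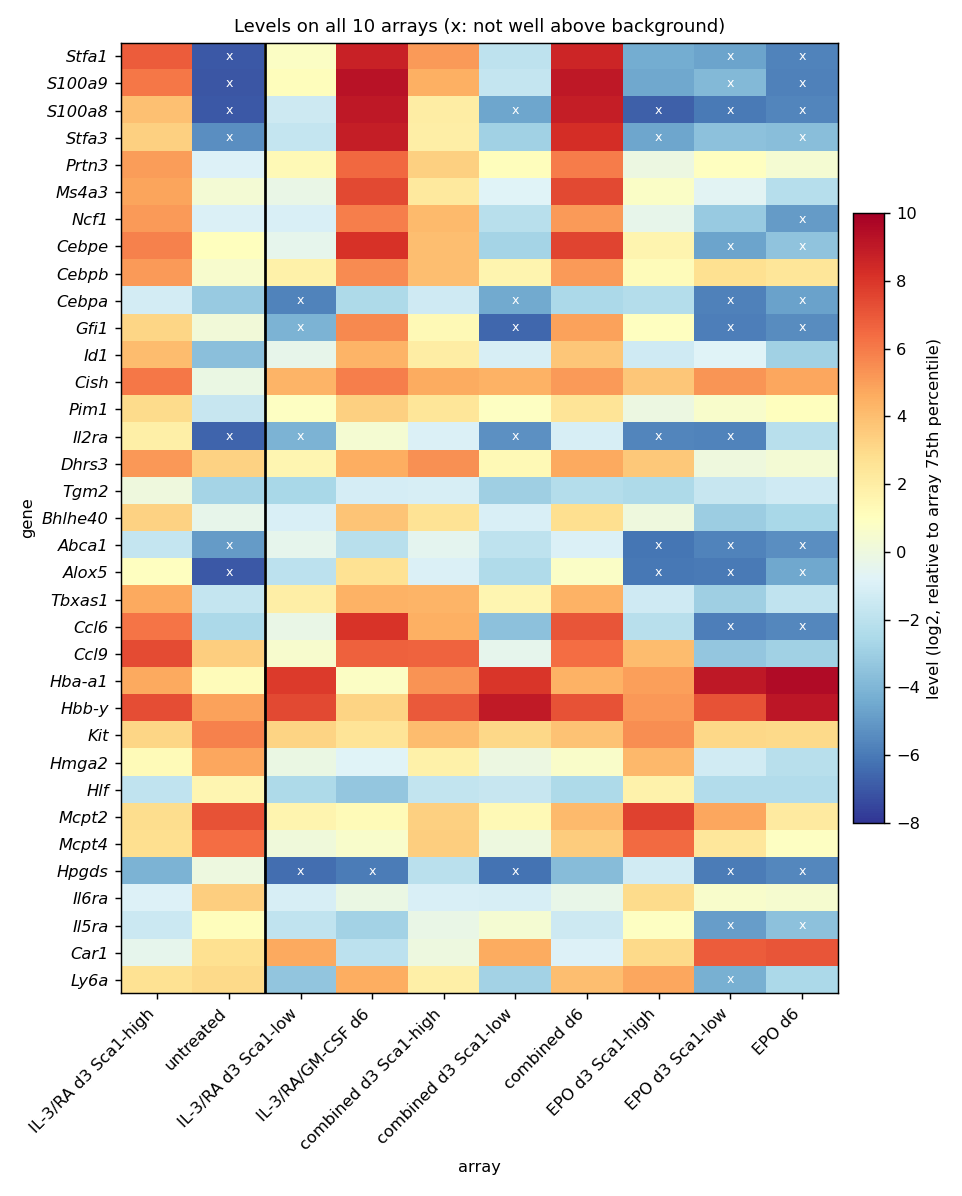
Levels (colour, log2 relative to the array's 75th percentile) of 35 genes on the 10 arrays, IL-3/retinoic acid (IL-3/RA) day 3 Sca1-high first and untreated beside it; x marks values not well above background. Stfa1 and S100a9 are above 4 in Sca1-high and day 6 cells of both arms with IL-3, while Cish is at least 3.69 on every array with cytokine and -0.13 in untreated cells.

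Targets of STAT5 and genes of cytokine feedback were called in both directions. Of 37 listed genes 35 were above background on either array, with 15 called higher and 5 lower; of the 30 above background on both, 11 were higher and 5 lower. Cish, a STAT5 target that damps receptor signalling, had a level of 6.07 in IL-3/retinoic acid Sca1-high cells and -0.13 in untreated cells, 73.6-fold higher. It was high under EPO too, with 3.69 in EPO Sca1-high cells, 5.29 in EPO Sca1-low cells and 4.75 in EPO cells at day 6. Its promoter is shown because 2 STAT-type strings, TTCNNNGAA on either strand (in capitals), lie close together at the gene start, chr9:107296409-107296708 (+), RefSeq GRCm38.p6.
Cish: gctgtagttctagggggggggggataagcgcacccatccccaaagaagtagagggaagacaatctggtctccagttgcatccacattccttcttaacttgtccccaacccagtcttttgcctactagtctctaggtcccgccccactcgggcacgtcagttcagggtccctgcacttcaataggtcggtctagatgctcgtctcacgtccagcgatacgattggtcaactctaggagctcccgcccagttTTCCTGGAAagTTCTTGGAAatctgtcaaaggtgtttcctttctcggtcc
The string occurred in 8.30% of all RefSeq promoters, in 10.7% of genes called higher, 9.44% of those called lower and 8.76% of measured genes.

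Pim1, a survival kinase, was 23.6-fold higher (2.90 in IL-3/retinoic acid Sca1-high cells, -1.66 in untreated cells), and the EPO Sca1-high level was -0.10. Il2ra, a STAT5 target and receptor chain, was at least 98.6-fold higher and was not above background in EPO Sca1-high cells. Socs1 was 15.6-fold and Socs2 7.06-fold higher, while Socs3 (0.60) was not called. Bcl2l1, which encodes the survival protein Bcl-xL, was 2.86-fold and Myc 2.72-fold higher. Bcl6, which STAT5 is known to repress, was 10.8-fold lower, with -1.83 in treated cells and 1.59 in untreated cells.

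Receptors split evenly. Of 46 cytokine receptor genes 40 were above background on either array, with 12 called higher and 11 lower and a median of -0.21. The alpha chains of the IL-3 and GM-CSF receptors were higher: Il3ra 2.37-fold (3.51 in IL-3/retinoic acid Sca1-high cells, 2.26 in untreated cells) and Csf2ra 2.63-fold (4.18 in treated cells, 2.79 in untreated cells). The beta chains were not: Csf2rb differed by -0.85, and Csf2rb2, the mouse IL-3-specific chain, was 2.49-fold lower. Il6ra, the IL-6 receptor, had the lowest difference in the list, 20.0-fold lower, with -0.90 in treated cells, 3.43 in untreated cells and 2.96 in EPO Sca1-high cells. Kit, the stem cell factor receptor, was 6.39-fold lower, Il5ra 6.15-fold and Epor 3.70-fold. Il1r2, a decoy receptor of neutrophils, was at least 11.9-fold higher and Il10ra 9.22-fold higher.

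The retinoic acid pathway gave a mixed picture. Of 31 genes for retinoid receptors, carriers and enzymes 20 were above background on either array, with 3 called higher and 5 lower. Dhrs3, which reduces retinal and limits retinoic acid synthesis, had a level of 5.19 in IL-3/retinoic acid Sca1-high cells, 3.31 in untreated cells and 3.64 in EPO Sca1-high cells, 3.69-fold above untreated cells. Crabp2, which carries retinoic acid to its receptors, was 2.23-fold higher. Stra6l was at least 2.51-fold higher. Rxra was 2.76-fold lower with both probes alike, Cyp26b1 2.79-fold lower and Dhrs9, which oxidises retinol, 3.88-fold lower. Cyp26a1, which degrades retinoic acid and is a usual target, and Rarb were not above background on any of the 10 arrays. Rara differed by 0.42 and Rarg by 0.60, and neither was called.

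Of 28 listed target genes of retinoic acid only 14 were above background on either array, and the 14 others include Hoxb1, Hoxa5 and Stra8. Besides Cebpe, Bhlhe40, a repressor of the clock and of differentiation genes, was 12.5-fold higher. Tgm2, tissue transglutaminase, was 6.82-fold higher, with 0.02 in IL-3/retinoic acid Sca1-high cells and -2.75 in untreated cells, and its probes differed (2.77 and 7.36). Ccr9 was at least 2.73-fold lower. On the combined Sca1-high array, which also received retinoic acid, Dhrs3 had 5.39, Bhlhe40 2.61 and Tgm2 -1.05. A DR5-type element is a pair of half-sites with 5 bases between them. It occurred in 3 of 1251 promoters of genes called higher, 1 of 773 of genes called lower and 5 of 11259 of measured genes. For DR2 (2 bases between) the numbers were 2, 2 and 14.

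Of 31 lipid transport and synthesis genes, none was called lower. Of these, 30 were above background on either array and 9 were called higher, with a median of 0.36. Abca1, a cholesterol exporter, was at least 7.98-fold higher, with a level of -1.74 in IL-3/retinoic acid Sca1-high cells and -0.51 on the combined Sca1-high array. Abcg1, which passes cholesterol to HDL, was 3.22-fold higher and Scd2, a desaturase, 3.24-fold. Mylip, which degrades the LDL receptor, was 2.27-fold higher and Srebf1, a lipogenic factor, 2.04-fold. Nr1h3, which encodes LXR alpha, had -4.60 in treated cells and was not above background in untreated cells. Against EPO Sca1-high cells on the same slide 8 members were higher and none lower, with a median of -0.11.

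Enzymes of leukotriene and thromboxane synthesis were among the genes called higher. Of 28 eicosanoid genes 22 were above background, with 9 called higher and 3 lower. Of the 16 above background on both arrays, 7 were higher and 2 lower. Alox5, which begins leukotriene synthesis, was at least 51.1-fold higher (0.94 in IL-3/retinoic acid Sca1-high cells). Tbxas1, thromboxane synthase, had 4.71 in treated cells and -1.67 in untreated cells, 83.6-fold higher. Its probe lay in the bright corner of the untreated array. Ltb4r1, the leukotriene B4 receptor of neutrophils, was 14.6-fold higher. Hpgds, which makes prostaglandin D2 in mast cells, was 16.5-fold lower (-4.07 in treated cells, -0.03 in untreated cells).

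Chemokine and chemoattractant receptor genes were called in both directions. Ccl6 had a level of 6.17 in IL-3/retinoic acid Sca1-high cells, -2.54 in untreated cells and -2.12 in EPO Sca1-high cells, 421-fold above untreated cells. Ccl9 was 15.1-fold, Ccl3 14.6-fold and Ccl5 107-fold higher. Of 32 chemokines 18 were above background on either array, with 10 called higher and 4 lower; of the 14 above background on both, 7 were higher and 3 lower, with a median of 0.80. Ccl2 was 4.39-fold and Ccl7 at least 5.36-fold lower. Of 25 chemoattractant receptors 19 were above background, with 10 higher and 2 lower; of the 11 above background on both, 5 were higher and 1 lower, with a median of 0.82. Cxcr2, the main neutrophil chemokine receptor, was at least 24.5-fold higher, and C3ar1, a complement receptor, had -0.73 in treated cells and was not above background in untreated cells. Ccr1 was 4.29-fold and Cxcr4, which retains cells in marrow, 3.94-fold higher.

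Monocyte and macrophage genes were called in both directions. Of 44 listed genes 34 were above background on either array, with 14 called higher and 6 lower and a median of 0.76. Adgre1, an adhesion receptor of macrophages, had a level of 4.11 in IL-3/retinoic acid Sca1-high cells and -4.49 in untreated cells, 387-fold higher, with a second probe at 6.83. The Fc receptors Fcgr4 and Fcgr1 were 41.4-fold and 12.6-fold higher and Mpeg1 (perforin-2) 32.7-fold, with probes at 2.75 and 5.03. Cd14, the lipopolysaccharide co-receptor, was at least 11.1-fold higher. F13a1 was 9.63-fold and Apoe 2.51-fold lower, and Ccr2 (0.82) and Cx3cr1 (-0.79) were not called. The summed level of 6 monocyte markers was 30.5 in treated cells, 9.07 in untreated cells and 11.6 in EPO Sca1-high cells. Adgre1 made up most of the sum in treated cells, and of the 6 markers 3 were called higher and 1 lower. Csf1r, the M-CSF receptor, was 2.98-fold higher, but its 3 probes differed (0.12 to 2.04).

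Of 32 lectin genes 23 were above background, with 11 called higher and 1 lower, among them Olr1 (at least 17.9-fold), Clec5a and Clec2i (15.6-fold). Of 26 Toll-like receptor genes and partners 18 were above background, with 7 higher and 2 lower; Unc93b1, which delivers Toll-like receptors to endosomes, was 8.38-fold higher and Tlr12 4.46-fold lower. Of 42 interferon-response genes 35 were above background, with 10 higher and 1 lower. Ifitm6 was at least 27.0-fold and Ifitm1 5.28-fold higher, while Zbp1 was 6.86-fold higher by 1 probe and 0.19 log2 by the other. Of 19 genes of antigen presentation 13 were above background, with 6 higher and 1 lower. Cd74 was 3.29-fold and H2-Eb1 2.25-fold higher, and Ciita, their activator, 2.47-fold lower. Fewer higher calls remained among members above background on both arrays. Higher were 6 of 17 lectin, 4 of 15 Toll-like, 6 of 29 interferon-response and 4 of 11 antigen presentation genes. Lower were 1, 2, 0 and 1 of them.

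Other genes among the 16 highest differences were Cstdc4 (at least 600.5-fold; 4.50 in IL-3/retinoic acid Sca1-high cells, -0.45 in EPO Sca1-high cells), Adgrg5 (an adhesion receptor, at least 580.4-fold), Bcl2a1d (an anti-apoptotic Bcl-2 relative, at least 372-fold), Gimap5 (a small GTPase of lymphocyte survival, at least 197-fold) and Grifin (a galectin relative, at least 191-fold). Adgrg5, Gimap5 and Grifin were highest of all 10 arrays in these cells, and at day 6 with GM-CSF had 3.21, 0.56 and 0.25, against 4.45, 2.89 and 2.85 at day 3. Bcl2a1d had 3.80 at day 3 and 7.11 at day 6.

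Stem and progenitor genes were lower in part. Of 35 listed genes 30 were above background on either array, with 10 called lower and 3 higher and a median of -0.32. Hmga2, a chromatin protein of fetal progenitors, had a level of 1.26 in IL-3/retinoic acid Sca1-high cells, 4.80 in untreated cells and 4.20 in EPO Sca1-high cells, 11.6-fold below untreated cells. Hlf, a factor of stem cell quiescence, was 10.2-fold lower, Tal1 3.36-fold and Gata2 3.05-fold. Mycn was 3.47-fold and Meis1 2.68-fold higher. Cd34 had 6.64 in treated cells and 6.92 in untreated cells and was not called, whereas the Sca1-low fraction had 0.44.

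Among the 16 lowest differences, Arhgef28, a guanine nucleotide exchange factor, was 40.6-fold lower with both probes alike (-4.76 in IL-3/retinoic acid Sca1-high cells, 0.58 in untreated cells, 0.64 in EPO Sca1-high cells). Crispld2, a secreted lipopolysaccharide-binding protein, was 26.2-fold lower, Frmpd1, a FERM and PDZ scaffold, 23.5-fold, Gask1b 19.8-fold and Slc37a3 17.6-fold. Slc6a4, the serotonin transporter, was 23.3-fold lower (-1.40 in treated cells, 3.14 in untreated cells) and Adora3, the adenosine A3 receptor of mast cells, 18.5-fold (-0.70 and 3.51). Mc2r, the corticotropin receptor, was at least 15.7-fold lower, but had 0.63 in the Sca1-low fraction. Taf9b and Acta1 were above background in untreated cells (levels under 0) and in neither day 3 Sca1-high array of the same slide. Vmn2r72, Il9 and Rbmy were bounded at 22.4-fold, 15.9-fold and 15.6-fold lower, but their probes lay in the bright corner of the untreated array. In that corner 18 of 55 measured genes were called lower and 4 higher. The part of the corner in these 3 differences was not tested; without its probes 1588 genes were called higher and 980 lower.

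Mast cell and basophil genes were mostly lower. Of 28 listed genes 27 were on the array and 25 above background on either array, with 15 called lower and 1 higher and a median of -1.61; of the 24 above background on both, 14 were lower. Mcpt2, a mast cell chymase, had a level of 2.90 in IL-3/retinoic acid Sca1-high cells, 7.16 in untreated cells and 7.62 in EPO Sca1-high cells, 19.2-fold below untreated cells. Mcpt4 had 2.82 in treated cells, 6.40 in untreated cells and 6.46 in EPO Sca1-high cells, a log2 difference of -3.59. Hdc, which makes histamine, had a log2 difference of -3.20. Cma1 was 5.74-fold and Cpa3, a granule carboxypeptidase, 2.24-fold lower. Ms4a2, the beta chain of the IgE receptor, was at least 4.11-fold lower. The exception was Cd200r3, an activating receptor of basophils and mast cells, with a log2 difference of 3.59. The summed level of the 7 mast cell and basophil markers was 150.3 in treated cells, 409 in untreated cells, 454 in EPO Sca1-high cells and 72.7 at day 6. Fcer1a (0.75) was not called. Of 15 eosinophil genes 10 were above background, with 10.0% called higher and 10.0% lower, against 11.3% and 7.11% of all genes. Siglecf was 2.21-fold higher and Il5ra lower, and Epx (-0.78) and Prg2 (-0.12) were not called.

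**Figure D4:**
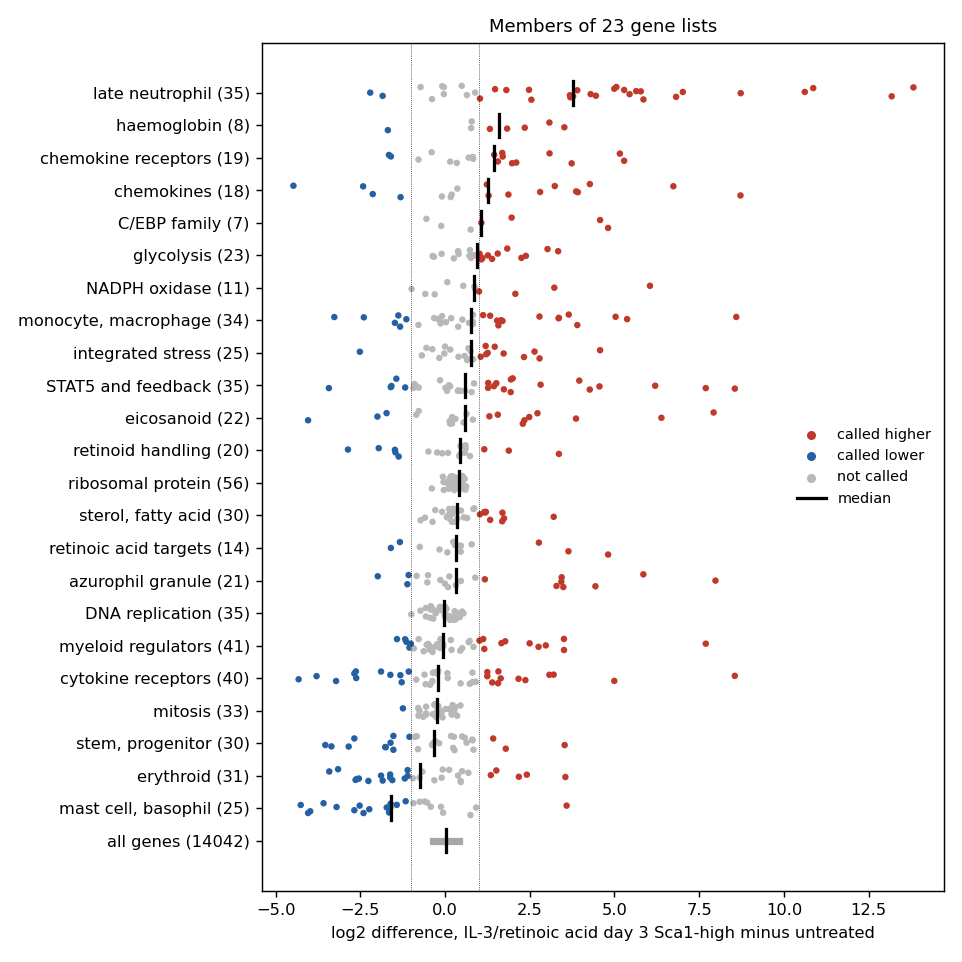
Log2 difference, IL-3/retinoic acid day 3 Sca1-high minus untreated, for members of 23 gene lists that were above background on either array (number in brackets), ordered by median (black bar); the last row gives the median and quartiles of all 14042 genes. By these medians late neutrophil genes lie farthest to the right (3.78) and mast cell genes farthest to the left (-1.61). Many late neutrophil members passed the filter only through the treated array. Over members above background on both arrays the medians were 1.25 for late neutrophil, 1.58 for haemoglobin and -1.515 for mast cell genes. DNA replication and mitosis genes stay between the dotted 2-fold lines except Cenpf.

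Of 35 erythroid genes 31 were above background on either array, with 14 called lower and 5 higher and a median of -0.75. Gata1, the master erythroid factor, had a level of 3.27 in IL-3/retinoic acid Sca1-high cells and 5.11 in untreated cells, 3.58-fold lower. Klf1, a further erythroid regulator, was 2.94-fold lower. Car1 (carbonic anhydrase) was 8.92-fold, Epb42 6.24-fold and Tspan33 6.08-fold lower. The 5 called higher were Nfe2, Rhag (at least 4.14-fold), Bcl2l1, Aqp1 and Cldn13.

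The adult alpha globin gene Hba-a1 had 4.71 in IL-3/retinoic acid Sca1-high cells, 1.19 in untreated cells and 4.95 in EPO Sca1-high cells, 11.5-fold above untreated cells. Its twin Hba-a2, whose near-identical transcript the probes may share, was 8.45-fold higher. Hbb-y, an embryonic beta-like globin, was 5.11-fold and Hbb-bs 3.56-fold higher, and Hbb-bh1, also embryonic, 3.22-fold lower. Of 12 haemoglobin genes 8 were above background, with 5 higher and 1 lower and a median of 1.58 against untreated cells; against EPO Sca1-high cells on the same slide the median was 0.25. The Sca1-low fraction of the IL-3/retinoic acid culture had Hba-a1 at 7.88. Alas2, the erythroid aminolevulinate synthase of the haem pathway, had -4.44 in treated cells. It was not above background in untreated cells, with a bound of 1.23-fold. Alas1 was 5.79-fold higher, but its second probe gave 0.49 log2. Hmox1 was 3.33-fold lower.

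Platelet genes were mixed: of 28 listed, all above background on either array, 9 were called higher and 5 lower. Of the 24 above background on both, 5 were higher and 5 lower. Pf4, a platelet chemokine, was 5.34-fold lower, Selp at least 8.46-fold and P2ry1 at least 6.08-fold higher. Of 22 B lymphoid genes 15 were above background, with 6 lower and 1 higher; Blnk was 4.41-fold, Dntt 4.01-fold and Foxo1 3.14-fold lower. Of 30 T and NK genes 19 were above background, with 4 in each direction; Tcf7 was 5.39-fold and Gata3 2.88-fold lower and Lck 2.62-fold higher. The defining B markers Pax5 and Ebf1, and the NK markers Ncr1 and Klrb1c, were not above background on either array.

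Glycolysis genes were called in 1 direction. Of 24 listed genes 23 were above background on both arrays, with 11 called higher and a median of 0.96. Slc16a3, a lactate exporter, had a level of 2.41 in IL-3/retinoic acid Sca1-high cells and -0.93 in untreated cells, 10.1-fold higher. Hk3, the hexokinase of myeloid cells, was 8.14-fold, the glucose transporters Slc2a3 and Slc2a1 5.22-fold and 3.57-fold, and Pkm 2.10-fold higher. Pgk1, counted also as a housekeeping gene, was 2.40-fold higher. Against EPO Sca1-high cells on the same slide 7 members were higher and none lower, with a median of 0.65.

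Of 28 listed genes of the integrated stress response 25 were above background on both arrays, with 10 called higher and 1 lower and a median of 0.76. Trib3 was 6.92-fold and Nupr1 6.24-fold higher. Nupr1 had 1.28 in IL-3/retinoic acid Sca1-high cells, -1.36 in untreated cells and 1.29 in EPO Sca1-high cells. Against EPO Sca1-high cells on the same slide the median was 0.04, with 3 higher and 2 lower; the difference between the comparisons was not tested. Slide and time in culture cannot be told apart here. None of 56 ribosomal protein genes was called. Their median was 0.41 against untreated cells, but it depends on the scaling, with 0.11 under quantile normalization alone, 0.08 with normexp before it and -0.06 under spike-in scaling. Against EPO Sca1-high cells it was -0.00.

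DNA replication and mitosis genes were rarely called. Of 35 DNA replication genes, all above background on both arrays, none was called. Their differences ran from -0.996 to 0.54, with a median of -0.03. Of 33 mitosis genes 1, Cenpf (-1.24), was called lower, and none higher, with a median of -0.23. These medians depend on the scaling, with -0.50 for DNA replication and -0.70 for mitosis genes under spike-in scaling. Of 30 genes of G1 control 29 were above background on either array, with 5 called higher (17.2%) and 1 lower (3.45%). The shares of all genes were 11.3% and 7.11%. Higher were Mycn, Myc, Ccnd2, Cdkn2a and Cdkn2d (p19, 2.72-fold), and Cdkn1c (p57) was at least 4.25-fold lower. Of the 27 above background on both arrays, 4 were higher and 0 lower. Of 24 p53 targets 20 were above background. Ddit4 was 3.32-fold and Gadd45a 2.50-fold higher and none was lower. The 10.0% of p53 targets called higher was near the 11.3% of all genes.

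The addition of IL-3 and retinoic acid was also measured in 2 arrays that the calls did not use, combined Sca1-high minus EPO Sca1-high, both at day 3 and both with EPO. Of 13840 genes above background there, 10.3% were higher and 10.2% lower by the same rule, and the median was -0.21. Of 1226 genes called higher in IL-3/retinoic acid Sca1-high cells and measured in this pair, 580 were higher (47.3%) and 105 lower (8.56%), with a median of 0.91. Of 863 genes called lower, 382 were lower (44.3%) and 54 higher (6.26%), with a median of -0.83. Over 12222 genes above background on all 4 arrays the differences of the 2 pairs had a Pearson r of 0.469 and a Spearman rank correlation of 0.188, across genes, which are not independent. The second pair crosses slides too.

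Late neutrophil genes had a median of 1.59 in the second pair (21 higher, 3 lower) and mast cell genes -1.44 (3 higher, 14 lower). List medians here are over members above background on either array of the first pair, and counts are over all members on the array. Many late neutrophil members passed that filter only through the treated array. Stfa1 differed by 9.54, S100a9 by 9.03 and Mcpt2 by -4.24. C/EBP genes had a median of 0.90, with 2 higher and 2 lower. Cebpe differed by 2.41, Cebpb by 2.76 and Cebpd by -1.07, while Cebpa (0.90) and Gfi1 (0.41) were not called in that pair. Glycolysis had 0.13 (4 higher, none lower), stress genes -0.26 (1 higher, 6 lower) and haemoglobins 0.51 (2 higher, 1 lower). Cish differed by 0.90 in that pair, in which both arrays had EPO.

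**Figure D5:**
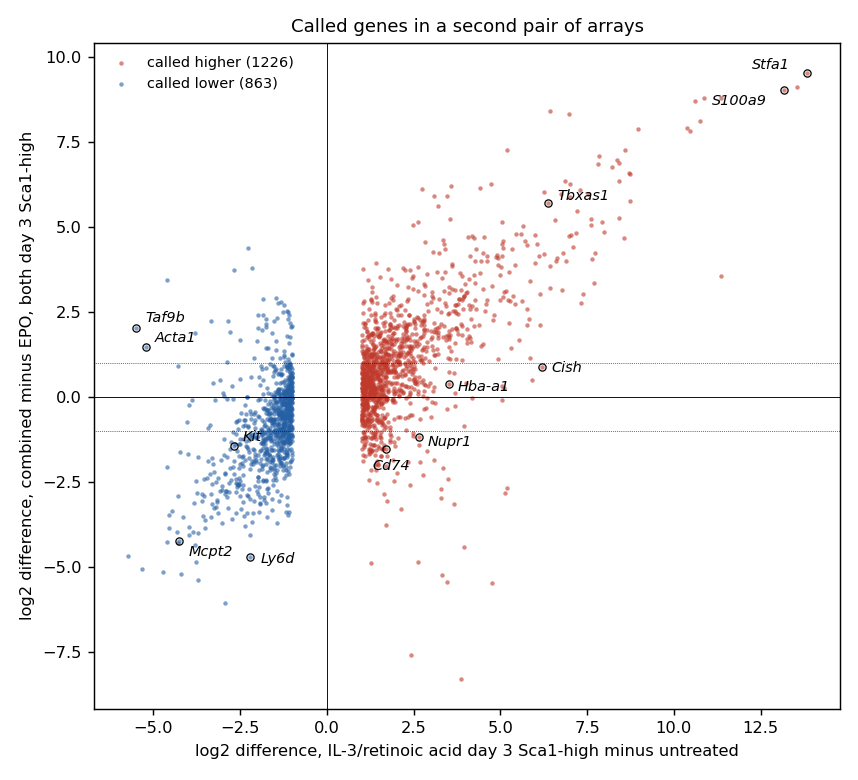
For genes called between IL-3/retinoic acid day 3 Sca1-high and untreated cells, that log2 difference (horizontal) and the difference between combined and EPO Sca1-high cells at day 3 (vertical), which shares no array with it. Stfa1 and S100a9 lie above 9 on the vertical axis, while Cish and Hba-a1 lie under the dotted 2-fold line and Taf9b and Acta1 lie on the other side of 0.

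EPO Sca1-high cells share slide, day and sort with IL-3/retinoic acid Sca1-high cells but had EPO in place of IL-3 and retinoic acid. This sets 1 treatment against another, so differences due to EPO enter it too. Against EPO Sca1-high cells 8.91% of 14051 genes were higher and 6.79% lower. Late neutrophil genes had a median of 3.24 there (24 higher, 1 lower) and C/EBP genes 1.00 (4 higher, 1 lower). Mast cell genes had -1.71 (2 higher, 18 lower) and erythroid genes -1.28 (2 higher, 16 lower). All same-slide list medians in the text are over members above background on either array of the main pair. The same-slide counts are over all members on the array. This comparison shares the treated array with the main one, so the values are given side by side and not as independent evidence. Of 452 called genes with several probes above background, 420 (92.9%) had 1 sign in all probes. Values of Elane, Mpo, Ctsg, Csf3r, Il3ra, Csf2ra, Csf2rb, Socs1, Gata1 and other list members outside the naming rule were chosen after they were seen.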

How the data were processed

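RNA of 10 cell populations was hybridised with Cy3 to Agilent 1-colour arrays, 1 array per condition. The deposited intensities are processed signals from Agilent Feature Extraction 11.0.1.1, which per the file headers subtracted background and removed spatial trends before deposit. Each array was scaled here to its 75th percentile and taken to log2. Control spots and outlier flags were left out, repeat spots averaged, and the brightest probe taken for each of 20508 genes. The call rule was a 2-fold difference, with the brighter array's spot well above background by its scanner flag. With 1 array per group there is no test and no p-value, and nothing says the cultures were separate. The number of arrays limits the precision.

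Named genes are the 16 highest and 16 lowest by bounded difference without clone-type symbols, the 4 called members of each of 41 lists with the largest absolute difference, Ly6a, and the 2 genes on each side of each threshold. Some genes that the rule picks are not reported here, and none took their place. The members and lists were chosen with earlier results of these data known. Gene symbols are those of the files, updated through RefSeq accessions (98.08% of such accessions matched), and 28446 of 55681 probes have no gene name here. Promoters of 2024 of the 2590 called genes were matched in RefSeq GRCm38.p6. Alternatives were normexp background correction (offset 50) before quantile normalization (limma 3.58.1, R 4.3.3), quantile alone, median scaling, the deposited value table's intensities (identical to the scanner's, with medians of 36.17 for IL-3/retinoic acid Sca1-high and 37.08 for untreated cells), no filter and a stricter filter on dim probes, the mean of all probes, and slide as a term. Normexp started from the median spot signal in place of the mean signal, which was not used here. Spike-in scaling and leaving out the corner were added after seeing the data. Calls were checked on simulated data. Other steps ran in Python 3.11.15 with numpy 2.4.6, pandas 2.3.3 and matplotlib 3.10.9.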

Additional observations from a re-analysis of the deposited data

Results flagged for a closer look

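Of the genes called between IL-3/retinoic acid Sca1-high and untreated cells, 105 called higher were lower and 54 called lower were higher between combined and EPO Sca1-high cells. The naming rule holds 8 of them; the difference between the 2 pairs was not tested, and each rests on 1 array a side. Taf9b differed by -5.50 in the first pair and 2.04 in the second. Acta1 differed by -5.21 in the first and 1.47 in the second. Cebpd, a C/EBP factor, had 1.07 and -1.07. Nox4, an NADPH oxidase catalytic subunit, had 1.00 and -1.54. Cd74, the class II invariant chain, had 1.72 and -1.52. Alas2, the erythroid aminolevulinate synthase, had 2.48 and -1.06. Nupr1, a stress-induced nuclear protein, had 2.64 and -1.16. Cenpf, a kinetochore protein, had -1.24 and 1.18. In Taf9b, Acta1 and Alas2 at least 1 array of the first pair was not above background. Klf4 and Notch1, named in the text outside the rule, were also called lower in the first pair and higher in the second.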

How the results depend on the processing

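The direction of every named call was the same under normexp with quantile normalization, quantile alone, median and spike-in scaling, the deposited value table, the mean of all probes, and each filter that kept it; only the model with slide as a term turned any. Normexp gave 786 genes higher and 556 lower, no filter on dim probes 1640 lower, and the filter for both arrays 851 higher. Sizes shrank under normexp. The median was 2.18 for late neutrophil genes (3.78 in the main processing) and 0.57 for chemokine receptors (1.45). It was 0.58 for chemokines (1.26) and -1.02 for mast cell genes (-1.61). Spike-in scaling, which shifts the median of all genes to -0.45 (median scaling to -0.15), gave 1057 higher and 2518 lower; without the corner the counts were 1588 and 980. Signal near background limits the calls too, since 385 higher calls have a bound under 2-fold. Leaving out a replicate was not possible, with 1 array per condition. No paired analysis was possible because each condition has 1 array, and all share the replicate number 1. Treatment, slide, day and sort cannot be told apart in the pair.

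The model with slide as a term gave 4295 higher and 3604 lower genes, of which 681 and 552 were also called without it. It has 8 terms, 2 residual degrees of freedom and 1 day 6 term for all treatments. Its slide term had a median size of 1.29 over all genes. That term was far larger for the genes named above as turned: 14.2 for Stfa1, 16.5 for S100a9, 19.6 for Gfi1 and 14.2 for Ncf1. Against EPO Sca1-high cells on the same slide, with no slide term, these differed by 11.24, 10.65, 2.20 and 5.48. The model gave -0.52 for the C/EBP median, -7.81 for late neutrophil genes, -1.31 for chemokines and -1.39 for chemokine receptors. Of genes called higher, it gave Cstdc5 -1.92, Stfa1 -1.16, S100a9 -4.06, Csta2 -6.44, Cstdc4 -14.27, Ccl6 -6.25, S100a8 -6.36, Adgre1 -2.83, Bcl2a1d -3.89, Stfa2l1 -6.55, Stfa3 -8.35, Id1 -2.78, Mycn -0.66, Dhrs3 -3.69, Cebpe -11.26, Bhlhe40 -3.56, Il1r2 -9.23, Il10ra -2.37, Cebpa -1.16, Cebpd -7.95, Klf2 -1.44, Vdr -3.81, Gfi1 -16.56, Igsf6 -5.60, Prtn3 -2.41, Ms4a3 -12.78, Prss57 -10.98, Ncf1 -8.72, Ncf4 -5.76, Cybb -7.41, Fcgr4 -3.98, Mpeg1 -3.79, Fcgr1 -4.04, Cd74 -6.02, H2-Oa -1.85, H2-Eb1 -0.97, Cd200r3 -6.02, Siglecf -1.86, Alas1 -4.97, Lck -1.38, Ccl9 -8.56, Cxcr2 -4.71, Ccr1 -5.50, Cxcr4 -5.03, Itgax -6.21, Itgb2l -12.89, Ly6c1 -16.51, Slurp1 -1.92, Cd14 -4.78, Unc93b1 -3.69, Ifitm6 -10.43, Ifi27l2a -7.45, Zbp1 -4.89, Bmf -4.41, Bcl2l1 -1.67, Bcl2 -0.49, Myc -0.14, Cdkn2d -2.08, Mvd -0.86, Slc16a3 -6.56, Hk3 -6.11, Slc2a3 -0.12, Pfkp -0.69, Ltb4r1 -3.22, Olr1 -8.58, Clec2i -2.18, Tnfsf9 -0.53, Traf1 -3.03, Ltb -5.34, Pgk1 -0.44, Ehf -1.45, Ssc4d -0.35. Of genes called lower, it gave Mc2r 2.17, Ciita 1.24, Car1 8.59, Epb42 9.97, Tspan33 10.40, Slc40a1 7.79, Blnk 1.47, Ly6d 7.31, Cd59b 2.35, Cdkn1c 3.62, Cenpf 0.76, Pcyt1a 2.85. The cause was not tested.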

Other observations

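Of 21 listed genes of the Bcl-2 family, which holds both survival and death-promoting members, 15 were above background on either array and 4 were called higher in IL-3/retinoic acid Sca1-high than untreated cells, with a median of 0.19. These were Bcl2a1d, Bcl2l1 and Bcl2, which protect cells, and Bmf, which promotes death. None was called lower. Bcl2a1d was the highest, and its probe may share signal with other Bcl2a1 copies. Of 22 NF-kB pathway genes 20 were above background, with 7 called higher and none lower and a median of 0.47. Of the 18 above background on both arrays, 5 were higher. Of 27 integrin genes 20 were above background, with 7 higher and 3 lower and a median of 0.12. Of the 16 above background on both arrays, 5 were higher and 1 lower. Of 29 Notch, Wnt and TGF-beta genes 21 were above background, with 3 higher (14.3%) and 4 lower (19.0%). The shares of all genes were 11.3% and 7.11%. Hes5 and Skil were among the higher ones, and Tcf7, Smad7, Hes1 and Notch1 were lower. Of 37 interleukin and growth factor genes 21 were above background, with 8 higher and 4 lower. Among the higher ones were Ltb, Il1b and Osm, and Il6 and Il13 were lower. Of the 15 above background on both arrays, 4 were higher and 2 lower. Of 17 Ly6 family genes 15 were above background, with 2 higher (Ly6c1 and Slurp1) and 3 lower (Ly6d, Cd59b and Ly6g6d); the probe of Cd59b lay in the bright corner of the untreated array. A PU.1-type string (AGAGGAAGT on either strand) occurred in 2.96% of promoters of genes called higher, 1.94% of genes called lower, 1.40% of measured genes and 1.00% of all promoters. A GATA-type string (AGATAA on either strand) occurred in 12.2%, 11.6%, 9.25% and 11.2% of the same sets.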
